A study of Homo sapiens with 14 samples.

Results

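The mRNA splicing of the cytosolic ribosomal protein (RP) genes was compared between SF3B1-MT and -WT HEK293T cells. Members were the splice events of genes whose symbols begin with RPL or RPS and a digit, together with RPLP0, RPLP1, RPLP2 and RPSA. Ribosomal S6 kinase genes and pseudogenes were left out, and an event needed a mean of at least 10 junction reads, taken as the mean of the WT and the MT mean reads. The rule found 731 events in 83 genes among 114349 events of the table, and another 27 RP events had fewer reads. Just inside the minimum were an RPL23 event with 10 reads and an RPS15 event with 10.8, and just outside were an RPL5 event with 9.58 and an RPS3A event with 7.25.

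HEK293T is a human embryonic kidney line, and its RNA was sequenced from 3 libraries of WT cells (SF3B1 K700K) and 3 of MT cells (SF3B1 K700E at the endogenous locus). DRIP-seq, which captures DNA:RNA hybrids with the S9.6 antibody, was run on Nalm-6, a human leukemic B cell line, in 2 untreated and 2 RNH1-treated libraries of each genotype. RNH1 is RNase H1, which removes the hybrids. No group carried another allele or agent by the labels, and the labels do not say that libraries came from separate cultures, so each p below measures only the spread between these libraries. MT 1, MT 2 and MT 3 are the 3 MT columns in the order of the table, which gives them no tie to a replicate label.

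RP genes encode the proteins of the large (RPL) and small (RPS) ribosomal subunits and are among the most highly expressed genes of any dividing cell. Most are short, and their introns often carry small nucleolar RNAs (snoRNAs). SF3B1 is a subunit of the U2 snRNP, which recognizes the branch point upstream of a 3′ splice site, and the K700E change is known for the use of cryptic AG dinucleotides upstream of the usual site.

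The sites on which the RP results turned are given below from GRCh38, on the strand of the gene. Capitals mark the AG that ends the intron at a 3′ site or the GT that opens it at a 5′ site. RPS15, which held the called event, had competing 3′ sites at the end of 1 intron, 2 of them upstream of the main site. The windows of the upstream sites lie at chr19:1439937-1439966 and chr19:1439944-1439973.
RPS15 upstream site 1: gccttagttctctgtccgccggAGtgcgta
RPS15 upstream site 2: ttctctgtccgccggagtgcgtAGggtctc
The AGs of the upstream sites lie 7 bases apart. Of the 20 bases before the AG, 14 were pyrimidines at upstream site 1 and 12 at upstream site 2.

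RP splicing was close to constant. The inclusion level is the share of junction reads, per length of each form, that carry the longer form of an event: the exon, the intron or the extended exon end. In a mutually exclusive exon event it weighs 1 exon against the other, and on the minus strand it is not settled which exon it counts. Of 730 RP events with a level in all 6 libraries, 437 had a WT mean of at least 0.99, 85 had one of at most 0.01, and 118 lay between 0.05 and 0.95. In 183 events (25.1%) every library had the same level to 3 decimals, at 1 in 165 of them and at 0 in 16. Over all genes this share was 11.1%.

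The remaining 547 events, in 81 genes, were tested. RPS6 and RPS10 had no event that varied. The RP events had a median of 4805 mean junction reads against 82.3 for all 83627 events tested. Their median difference between the genotypes was 0.001 in size, against 0.0137 over all events. Much of this gap went with reads: among events with at least 1000 mean reads, the median size was 0.000667 for 446 RP events and 0.001 for 1848 events of other genes.

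One RP event passed the call, an adjusted p under 0.05 (limma, Benjamini-Hochberg over all events tested) with a difference above 0.1, and it lay in RPS15. The event was lower in MT, and 0 RP events were called higher. Over all events tested, 26 passed, or 0.0311%, of which 0.0179% were lower and 0.0132% higher in MT. Regardless of the test, 11 RP events (2.01%) differed by more than 0.1, beside 5.82% of all events. By more than 0.01 it was 100 RP events (18.3%), beside 58.2% of all events. At any size of difference, 2 RP events had an adjusted p under 0.05, the RPS15 intron among them, beside 0.0371% of all events. At an unadjusted p under 0.05 there were 36 RP events (6.58%), against 4.48% of all. As a check of the labels, the alternative 3′ site of SERBP1, a known SF3B1-MT target, had levels of 0.461, 0.5 and 0.509 in WT, against 0.801, 0.757 and 0.805 in MT, a difference of 0.298 (limma, adjusted p = 6.8e-10).

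**Figure D1:**
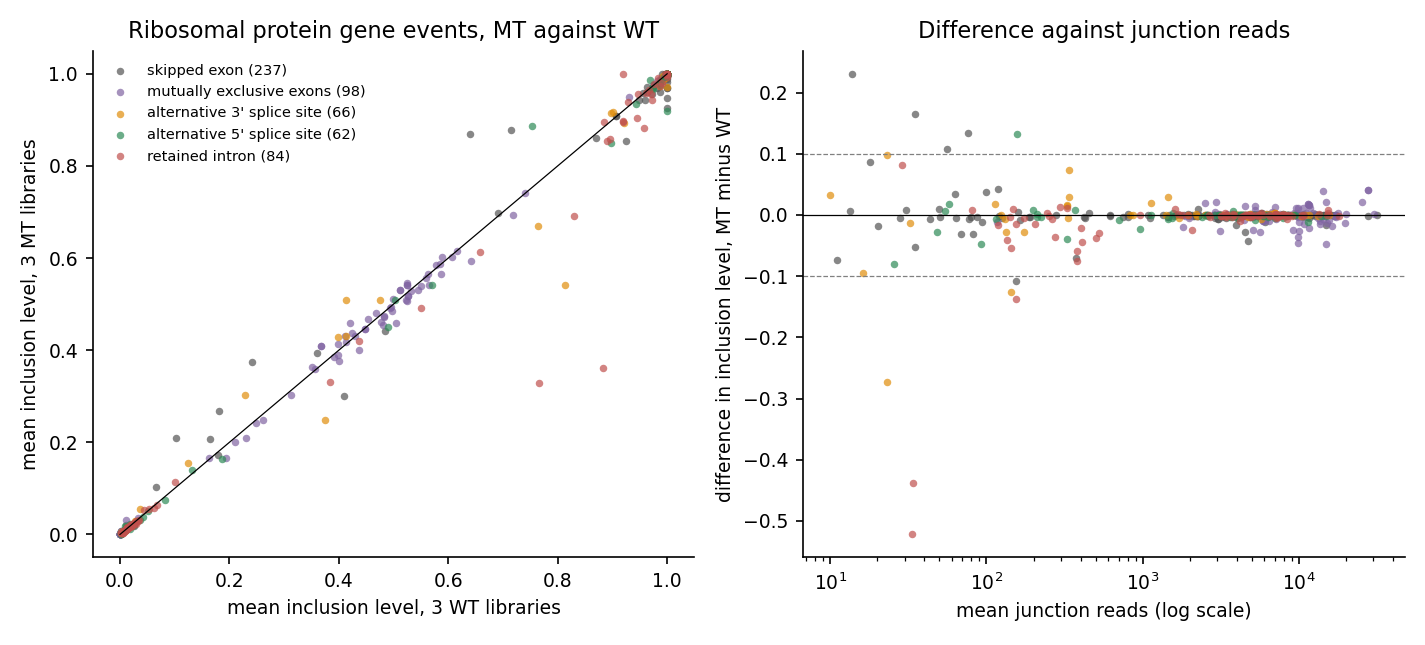
The left panel plots the mean inclusion level in 3 MT libraries (y axis) against that in 3 WT libraries (x axis) for the 547 RP events tested, coloured by event type, with the line of equal levels. The right panel plots the difference, MT minus WT, against mean junction reads on a log axis, with dashed lines at 0.1 and -0.1. The 11 events beyond the dashed lines had at most 155.7 reads, and the 2 lowest points are the RPS15 introns.

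RPS15 encodes a small subunit protein near the decoding center, and its gene is recurrently mutated in chronic lymphocytic leukemia. It had 19 events, of which 15 were tested. The called event compares reads across the ends of the intron with reads spliced to upstream site 2 (intron chr19:1438893-1439967). Its level was 0.647, 1 and 1 in WT, against 0.296, 0.385 and 0.400 in MT. Every MT library was thus below every WT library, with a WT mean of 0.882 ± 0.204 (SD, n = 3) and an MT mean of 0.360 ± 0.0562 (SD, n = 3). The difference was -0.522 (limma, Benjamini-Hochberg adjusted p = 0.0412). A fall of this level is a rise of splicing to upstream site 2 relative to reads across the ends of the intron, which can include reads spliced to upstream site 1.

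Upstream site 1, 7 bases before, went the same way. The level of its intron was 0.706, 0.833 and 0.760 in WT, against 0.250, 0.385 and 0.349 in MT. Its groups did not overlap either, and the difference of -0.438 had an adjusted p of 0.147 (limma, Benjamini-Hochberg). Both events share the reads inside the intron and are not independent.

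Against the main site the upstream sites stayed rare in both genotypes. Upstream site 1 took 0.001 of the reads in each WT library and 0.004, 0.004 and 0.006 in MT, with 7054 mean reads behind the event. Upstream site 2 took 0.001 in each WT library and 0.003, 0.004 and 0.005 in MT. Every MT library was above every WT library at both sites, but the adjusted p were 0.822 and 0.856 (limma, Benjamini-Hochberg). Each upstream site thus took at most 0.006 of the reads when set against the main site. The level of the whole intron against the main site was 0.001 in each WT library and 0.002, 0.003 and 0.004 in MT, without a call (limma, adjusted p = 0.856). Reads spliced to the upstream sites also cross the 3′ end of that intron, so this level does not measure unspliced reads alone.

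The reads behind the call were few. The authors' mean was 25 junction reads in WT and 42 in MT for the called event, against 7425 and 6684 for upstream site 1 beside the main site. For the event that compares the upstream sites with each other the authors' means were 6 reads in WT and 40.2 in MT, and its levels of 0.439, 1 and 1 in WT rested on those 6. MT means are over 6 listed values, of which 3 have no column of their own. Both upstream sites are annotated, each in 1 of 13 RPS15 transcripts. The call held without WT 1 (adjusted p = 0.0044) and was lost without any other library, with adjusted p up to 0.892. It was also lost with a logit transform (adjusted p = 0.763), without a variance trend (0.634) and without a read minimum (0.0504).

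**Figure D2:**
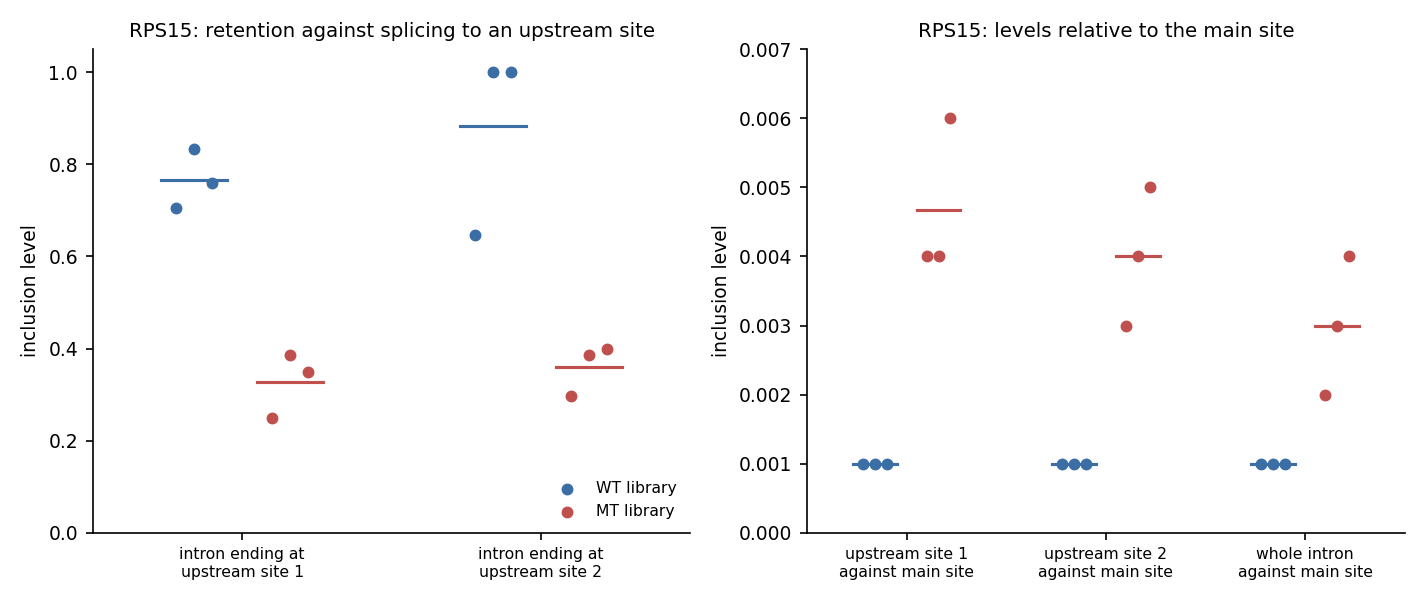
Inclusion levels of 5 RPS15 events (y axes) in each of 3 WT (blue) and 3 MT (red) HEK293T libraries, with bars at the means. The left panel (0 to 1) shows the introns that end at the upstream sites, and the right panel (0 to 0.007) shows upstream site 1, upstream site 2 and the whole intron against the main site. MT is lower in the left panel and higher in the right, with no overlap in any of the 5 events.

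In 36 of 547 RP events (6.58%) no WT library overlapped an MT library, beside 5.46% of all events tested. They lay in 18 genes. MT was lower in 26 of the RP events and higher in 10, where the shares of all events were 3.14% and 2.32%. Read by form, the rarer form of the event, defined by the mean over all 6 libraries, was higher in MT in 33 of the 36, in 17 genes. Over all events without overlap it was higher in 2944 of 4566 (64.5%). With at least 1000 reads it was higher in 26 of 27 RP events without overlap and in 54 of 73 (74.0%) of other genes. With or without overlap, the mean of the rarer form was higher in MT in 59.4% of the 547 RP events and in 56.0% of all events. The 3 exceptions were 2 events of RPL41 and 1 of RPS15A. This reading by form was chosen after the values were seen and carries no test, and several events share junctions.

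The rarer forms were small. In the 430 RP events with a mean level over 0.95 or under 0.05, they made up 0.594%, 0.581% and 0.585% on average in the WT libraries, against 0.742%, 0.685% and 0.808% in the MT libraries. With at least 1000 reads (379 events) the averages were 0.565%, 0.518% and 0.555% in WT, against 0.605%, 0.622% and 0.674% in MT. MT was above WT without overlap in both of these sets. Over all 547 RP events the genotypes overlapped, at 7.38%, 6.72% and 6.97% in WT and 7.69%, 7.22% and 7.47% in MT, and so they did over the 446 with at least 1000 reads, at 6.22%, 5.93% and 5.99% in WT and 6.32%, 5.97% and 6.07% in MT. The 1848 events of other genes at that depth overlapped as well. Their WT libraries averaged 8.89%, 8.32% and 8.52%, their MT libraries 8.87%, 8.26% and 8.31%, so the MT mean was slightly lower. Of these events, 1422 had a mean level over 0.95 or under 0.05. Those 1422 had 0.371%, 0.377% and 0.420% in WT, against 0.407%, 0.451% and 0.491% in MT. Within these level limits a higher rarer form was thus not particular to RP genes, although MT 1 fell within the WT range there. Examples were exon skipping in RPL5, a 5S RNA-binding protein (0.998, 0.997 and 0.999 in WT, 0.993, 0.994 and 0.99 in MT), and in RPS25 (1, 1 and 0.999 in WT, 0.997, 0.998 and 0.998 in MT).

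**Figure D3:**
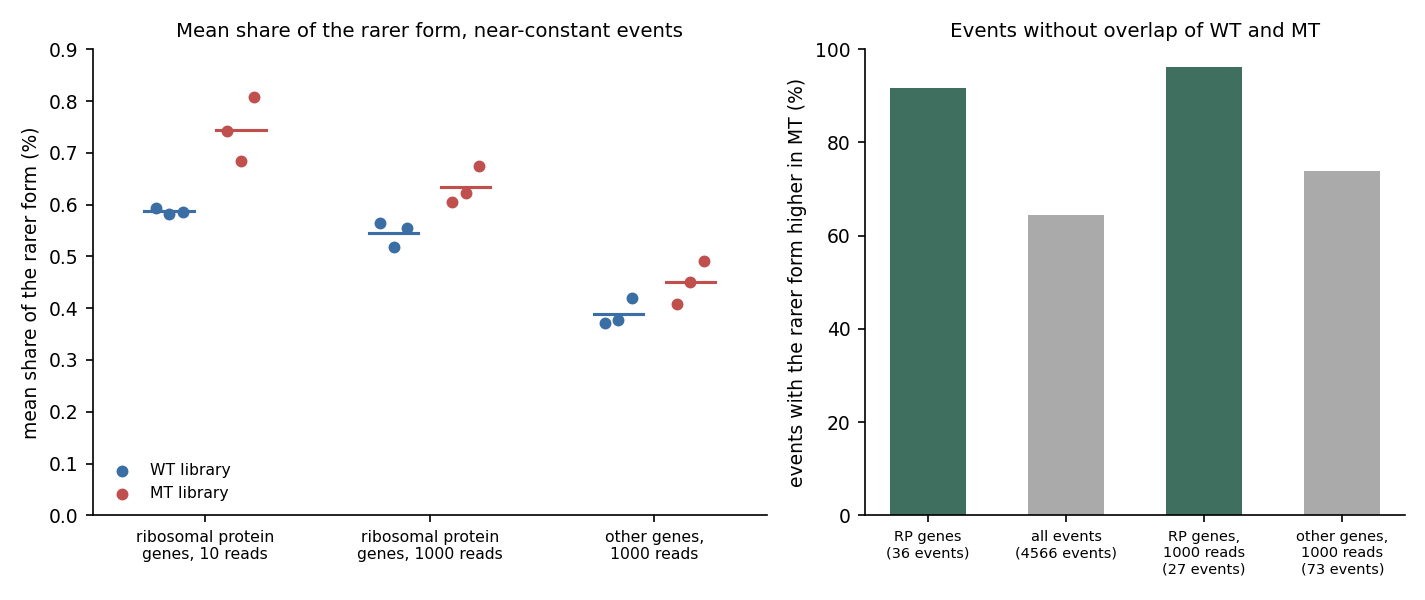
The left panel plots, for each of 3 WT (blue) and 3 MT (red) libraries, the mean share of the rarer form in percent over near-constant events, with bars at the means, for RP genes at 2 read minimums and for other genes. The right panel plots the percent of non-overlapping events in which the rarer form was higher in MT, 91.7% of 36 RP events and 64.5% of all 4566 events, and with at least 1000 reads 96.3% of 27 RP events and 74.0% of 73 events of other genes.

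Among RPS genes, introns and exon pairs gave further low p. The 143-base intron in the 5′ UTR of RPS7, a Diamond-Blackfan anemia gene (chr2:3575449-3575591), had levels of 0.979, 0.920 and 0.976 in WT, against 0.874, 0.858 and 0.915 in MT. The groups did not overlap, and the adjusted p was 0.452 (limma, Benjamini-Hochberg). Retention was the common form in both genotypes by this measure.

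RPS2, at the mRNA entry side of the small subunit, and RPSA, also known as the laminin receptor, had their lowest p in mutually exclusive exon events. RPS2 went from 0.372, 0.377 and 0.355 to 0.388, 0.410 and 0.428, with 27572 mean reads (limma, adjusted p = 0.338). RPSA went from 0.634, 0.622 and 0.669 to 0.585, 0.575 and 0.621 (limma, adjusted p = 0.452). WT and MT did not overlap in either gene, though the nearest RPSA libraries were at 0.622 and 0.621. Of the 98 mutually exclusive exon events tested in RP genes, 95 (96.9%) have both exons together in an annotated transcript, so these levels weigh the reads at 2 exons that annotated transcripts keep together, and 59 of the 118 RP events with a WT mean between 0.05 and 0.95 were of this type. RPS2 lies on the minus strand, so the direction of its level names no exon. The RPS2 event of this type with most reads (30024) stood at 0.424, 0.424 and 0.441 in WT, against 0.428, 0.426 and 0.440 in MT.

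RPS24, another Diamond-Blackfan anemia gene, has short alternative exons at its 3′ end. Here too 1 library decided the result, and the event was named after the values were seen. The 22-base exon is shown with its flanks, exon in capitals (chr10:78040200-78040229, plus strand).
RPS24 exon: tcagTGAGCTGGAGATTGGATCACAGgtat
Its level was 0.539, 0.470 and 0.445 in WT, against 0.312, 0.279 and 0.736 in MT. MT 1 and MT 2 lay below every WT library and MT 3 above. With all libraries the difference was -0.0423 (limma, adjusted p = 0.856), and without MT 3 it was -0.189 (adjusted p = 0.0138), the only RP event then called. The RPS24 event with most reads, an exon of 111 bases, had a level of 1 in all 6 libraries.

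RPS9 and RPS15A had larger differences at fewer reads. A distant alternative 3′ site of RPS9 went from 0.487, 0.268 and 0.367 to 0.307, 0.291 and 0.148, with overlap, and a 172-base exon of RPS9 went from 0.494, 0.191 and 0.542 to 0.407, 0.246 and 0.248. Both recur with another upstream exon and more reads, again with overlap. There the 3′ site went from 0.024, 0.02 and 0.036 to 0.018, 0.024 and 0.033 (2224 mean reads). The exon went from 0.024, 0.015 and 0.051 to 0.022, 0.02 and 0.046 (2234 mean reads). An RPS15A exon of 97 bases with 34.8 mean reads went from 0.778, 0.682 and 0.684 to 0.929, 0.864 and 0.844 without overlap (limma, adjusted p = 0.856). The RPS9 exon with most reads stood at 1 in every library.

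The large subunit genes had no call in 239 events of 42 genes, beside 0.0311% of all events tested. RPL3, a protein of the peptidyl transferase center, had the lowest p among them, in a 796-base retained stretch that holds the snoRNA gene SNORD83B (chr22:39313311-39314106, minus strand). Its level was 0.828, 0.877 and 0.784 in WT, against 0.748, 0.708 and 0.619 in MT, without overlap, a difference of -0.138 (limma, adjusted p = 0.728). The stretch had 153.7 mean reads. It also holds the 96-base exon of the RPL3 exon event with most reads (14061). That exon event stood between 0.996 and 0.999 in all 6 libraries. The junction set against the stretch skips this exon and is in 0 of 18 annotated RPL3 transcripts. The level is thus not the retention of 1 plain intron.

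RPL41 encodes the smallest ribosomal protein. Most reads used an inner 5′ site. A middle and an outer site lie downstream of it, and both are shown with the GT in capitals, at chr12:56116820-56116849 and chr12:56116921-56116950.
RPL41 middle site: agcttgggagGTaggagttggcgagtagta
RPL41 outer site: gagagagaagGTagtttgtgagagagctag
Against the inner site the outer site took 0.024, 0.051 and 0.05 in WT, against 0.028, 0.045 and 0.038 in MT. These groups overlapped, at 1538 mean reads (limma, adjusted p = 0.895). Set against the rare middle site alone, the outer site took 0.646, 0.808 and 0.805 in WT, against 0.829, 0.935 and 0.894 in MT. In this event the groups did not overlap, and the difference of 0.133 had an adjusted p of 0.741 (limma, Benjamini-Hochberg), with 155.7 mean reads. The middle site against the inner site took 0.016, 0.02 and 0.017 in WT, against 0.013, 0.01 and 0.009 in MT. It was thus lower in MT without overlap, at 1452 mean reads (limma, adjusted p = 0.856).

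RPL17 and RPL13A showed the spread of the less covered large subunit events. A 98-base exon in the 5′ UTR of RPL17 went from 0.206, 0.261 and 0.257 to 0.279, 0.310 and 0.536, without overlap but with MT 3 far above the rest. That event had 75.75 mean reads. With other upstream exons the levels of the same exon overlapped. They went from 0.203, 0.11 and 0.181 to 0.2, 0.153 and 0.266 (119.3 mean reads), and from 0.5, 0.246 and 0.333 to 0.469, 0.252 and 0.462 (62.7 mean reads). An RPL17 exon of 94 bases went from 0.961, 0.902 and 0.909 to 0.875, 0.805 and 0.879, also without overlap (limma, adjusted p = 0.805). An intron of RPL13A that holds a snoRNA gene went from 0.634, 0.516 and 0.5 to 0.628, 0.544 and 0.3, and the direction turned without MT 3 (0.036).

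Other genes had alternative forms whose levels overlapped between the genotypes. The RPLP0 stalk gene had an exon at 0.916, 0.914 and 0.887 in WT, against 0.894, 0.903 and 0.928 in MT. An alternative 3′ site in the 5′ UTR of RPLP0 was at 0.374, 0.427 and 0.395 in WT, against 0.394, 0.435 and 0.454 in MT. An alternative 5′ site of RPL10A was at 0.047, 0.047 and 0.057 in WT, against 0.032, 0.052 and 0.066 in MT. The most covered RPL8 intron stood at 0.938, 0.953 and 0.95 in WT, against 0.955, 0.958 and 0.953 in MT, and the events with most reads of RPS3, RPL12, RPS27A, RPL30 and RPL10A stayed at 0.995 or above in every library. RPL22L1, the paralog of RPL22, has an alternative 3′ site 67 bases from the other, which took 0.302, 0.120 and 0.266 in WT, against 0.444, 0.232 and 0.234 in MT (limma, adjusted p = 0.856).

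**Figure D4:**
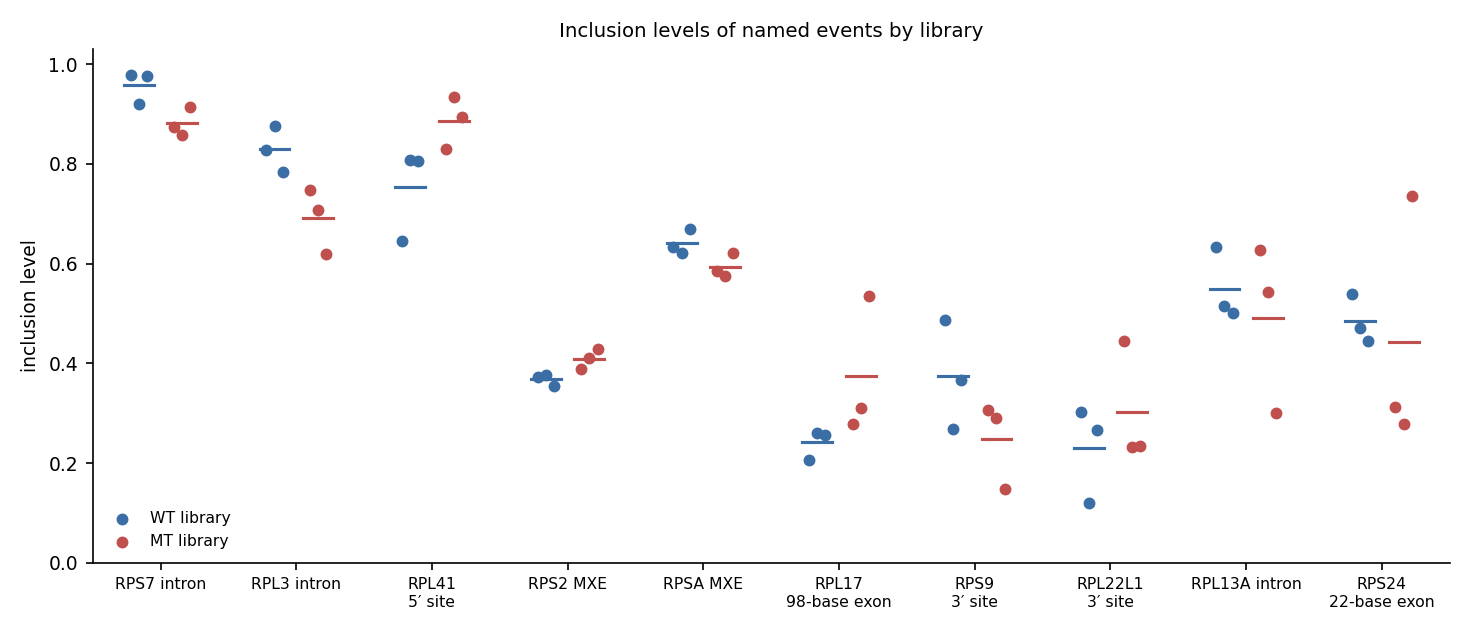
Inclusion level (y axis, 0 to 1) of 10 named RP events in each of 3 WT (blue) and 3 MT (red) HEK293T libraries, with bars at the group means. MXE marks mutually exclusive exons, and the RPL41 event is the outer against the middle site. The RPL3 intron is the retained stretch, which also holds an exon. WT and MT do not overlap in the first 6 events, and MT 3 stands above the other MT libraries in the RPL17 and RPS24 exons.

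Alternative 3′ sites 10 to 30 bases apart are the class in which SF3B1 mutation is best known to act. Among all genes, 137 of 999 such events (13.7%) did not overlap between WT and MT, and 4 were called, all higher in MT. In RP genes 7 were tested, in 5 genes, and in 0 of them did the libraries separate. At an unadjusted p under 0.05 there were also 0 of the 7 (limma). The differences of the 7 ran from 0.000333 to 0.0973, so the MT mean was higher in each of them. With 7 events, a count of 0 cannot be told apart from the share of 13.7%. A 13-base choice in the 5′ UTR of RPL15, a Diamond-Blackfan anemia gene, was at 0.046, 0.031 and 0.031 in WT, against 0.074, 0.048 and 0.045 in MT. In RPL18 and RPS15A, with 5596 and 6124 mean reads, the longer form stayed between 0.004 and 0.017 in all 6 libraries. Another 2 events, in RPL13 and RPL9, did not vary at all.

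By type, 15 of 237 skipped exon, 7 of 98 mutually exclusive exon, 3 of 66 alternative 3′ site, 4 of 62 alternative 5′ site and 7 of 84 retained intron events of RP genes did not overlap. The shares over all genes were 4.59%, 6.50%, 9.28%, 7.20% and 7.11% in the same order. Median differences in size were from 0.000667 for skipped exons to 0.004 for mutually exclusive exons in RP genes. The 27 RP events in 5′ UTRs had the widest median difference, 0.0197, with a median of 297.5 reads, against 0.001 and 5016 reads in coding spans. Retained introns with a snoRNA gene inside had a median of 0.00167 over 21 events, and those without one 0.002 over 63.

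The lists of RP genes are set beside the 0.0311% of all events tested that were called. In lists of this size a count of 0 cannot be told apart from that share. The small subunit had 1 call, in RPS15, among 255 events of 28 genes, with 23 (9.02%) that did not overlap, and the large subunit had 12 of 239 (5.02%). The stalk genes had 0 calls and 0 without overlap among 32 events, and the paralogs 0 and 0 among 11. The Diamond-Blackfan anemia genes had 0 calls and 7 without overlap among 82 events of 18 genes, where 5.46% of all events did not overlap. RPS14, which is lost in the 5q deletion of myelodysplastic syndrome, had 1 event, with a difference of 0.000667. Among 303 events of other ribosomal and translation genes (18 genes) and 197 of ribosome assembly genes (22 genes) there were 0 calls, with 9 and 6 at an unadjusted p under 0.05 (limma), beside 4.48% of all events. Gene by gene, the largest difference of any event was under 0.01 in 38 of 81 RP genes, from 0.01 to 0.05 in 27, up to 0.1 in 9 and above 0.1 in 7.

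DRIP-seq gave another readout of these genes, in Nalm-6 cells. Of 83 RP genes, 11 and 11 had a peak over the gene in the untreated WT libraries, and 30 and 33 in the untreated MT libraries. The 83 include 3 symbols that join an RP gene to a neighbor: RPS10-NUDT3, RPL17-C18orf32 and RPL36A-HNRNPH2. RPS10-NUDT3 had 7 peaks in each untreated WT library, while RPS10 itself had none in any library. Untreated MT peaks over RPL17 count under both RPL17 and RPL17-C18orf32. Bona fide peaks, those of untreated DNA that did not touch any peak found after RNH1 treatment of the matching genotype and number, lay over 10 and 9 RP genes in WT and over 22 and 25 in MT. Every MT library was above both WT libraries. The differences of 20.5 and 14 genes each had p = 0.333 (two-sided exact permutation test), the smallest that 2 against 2 libraries can give, so this design cannot reach 0.05.

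MT libraries also had more genes with peaks among all coding genes, and more in the RNH1-treated DNA. Of 20033 coding genes, 52.5% and 54.5% had an untreated peak in WT and 64.3% and 65.4% in MT, where the RP genes had 13.3% and 13.3% in WT and 36.1% and 39.8% in MT. After RNH1 treatment, 6 and 7 RP genes had a peak in WT and 16 and 22 in MT. The part of library depth in these counts was not tested, since the peak lists hold no reads.

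By gene, 18 RP genes had an untreated peak in both MT libraries and in neither WT library, and 0 had the reverse, or 21.7% and 0%, beside 9.21% and 1.2% of all coding genes. For bona fide peaks the numbers were 14 and 2, or 16.9% and 2.41%, beside 7.08% and 2.33% of all coding genes. Only a gene without a WT peak can count as MT only. Untreated WT peaks lay over 13.3% of RP genes in each library, beside 52.5% and 54.5% of coding genes. Bona fide WT peaks lay over 12.05% and 10.84% of RP genes, beside 49.78% and 48.39% of coding genes. The shares above are not matched for this, and its part in the RP shares was not tested. RPS15 was among the 14, with fold enrichments of 4.86 and 4.90 over the local background in MT and no peak in any WT or RNH1-treated library. RPS24 was another, with 4.85 and 4.18. RPL27A and RPL30 had untreated MT peaks with 7.97 and 7.39 and with 7.07 and 7.38, but both also had peaks in RNH1-treated MT DNA. RPL3, RPL41, RPS2 and RPS7, with low p in the splice data, had no peak in any of the 8 libraries, nor had RPL13A, a locus often used as a positive control in DRIP. RPSA, whose splice p was also low, had a peak in each of the 8 libraries. Untreated WT libraries gave it fold enrichments of 10.48 and 9.935, untreated MT libraries 5.903 and 6.75. Its strongest peaks after RNH1 treatment ran from 9.643 to 14.13, and it had 0 bona fide peaks. The cell lines differ, so no RP gene's splicing and hybrids were measured in the same cells.

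**Figure D5:**
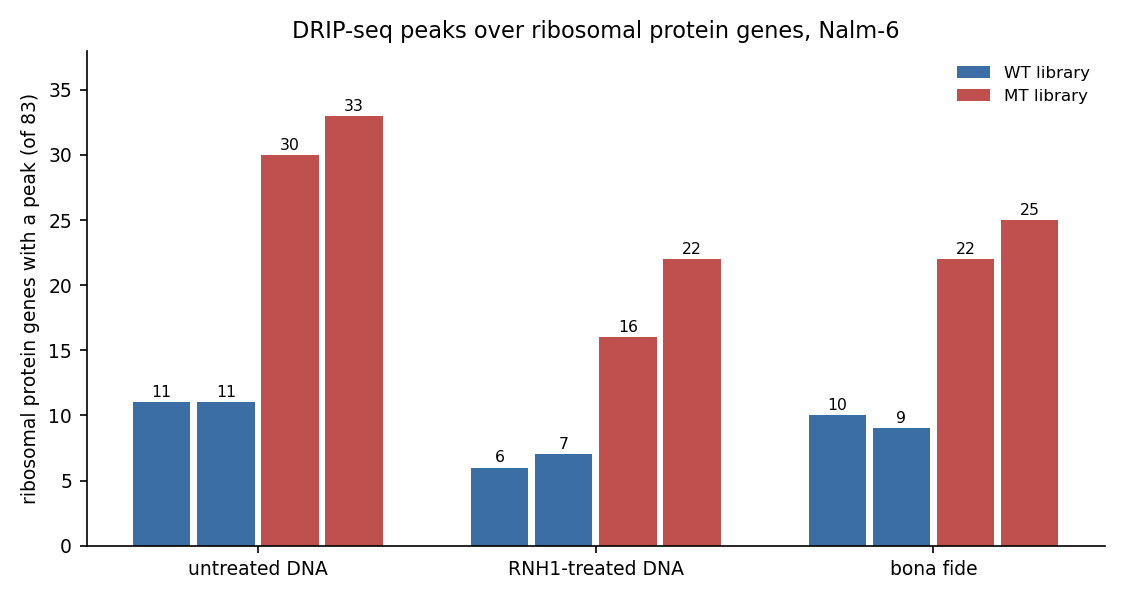
Number of the 83 RP genes with a DRIP-seq peak over the gene (y axis, from 0) in each Nalm-6 library, 2 WT (blue) and 2 MT (red), for untreated DNA, RNH1-treated DNA and bona fide peaks. The MT bars are higher than the WT bars in all 3 sets, with 30 and 33 against 11 and 11 in untreated DNA.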

How the data were processed

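The authors built stranded RNA-Seq libraries and adopted the rMATS model; the submitters' processing notes name STAR, StringTie, BWA and GRCh38, without versions. Their deposited inclusion level is a fraction with 3 decimals, given beside the authors' mean junction counts per group. Of 6 listed MT values per event, 3 have no column and were not used, and the authors' own comparison columns (p-values and differences) were not used. Inclusion levels were arcsine square root transformed and compared in R 4.3.3 with limma 3.58.1, with a variance trend on log2 mean reads, over every event with levels in all 6 libraries, at least 10 mean reads and some variation, with Benjamini-Hochberg adjustment. The method was tested on simulated data in which only events of intermediate level were changed. Its noise was drawn on the transformed scale that the fit used. That test does not bear on near-constant events, which most RP events were. The rMATS model was not rerun, because the counts of the MT libraries are not matched to samples. Locations came from GENCODE 44.

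For DRIP-seq the authors aligned reads with BWA-MEM and called peaks with MACS2 for each library, and the deposited value used is the fold enrichment, a ratio over the local background. A peak sharing 1 base with a gene counted.

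The members, gene lists and tests were chosen with earlier results of these data known. Named were the called events, the 10 with the lowest p, the 10 with the largest difference at 50 or more reads, the most covered event of each type with a WT mean of 0.05 to 0.95, and the most covered event of 10 genes with known forms. Other RP events were named after their values were seen. Some results and sequences are not reported here.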

Additional observations from a re-analysis of the deposited data

How the results depend on the processing

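The call in RPS15 depended on the processing. The number of RP events called was 0 with a logit transform, without a variance trend, without a read minimum (adjusted p = 0.0504 for the RPS15 intron), with a minimum of 50 reads, where that intron drops out, and with a replicate block by column number. It was 1 with a difference above 0.05. Leaving out 1 library gave 0 to 1, the RPS15 intron without WT 1 and the RPS24 exon without MT 3. RP events with an adjusted p under 0.05 at any size numbered 0 with the logit, 0 without the trend, 0 with the block and 1 under both other read minimums, and 0 to 1 leaving out 1 library. Over all genes the calls fell from 26 to 0 with the logit, to 0 without the trend, to 12 with the block and to between 3 and 13 without 1 library, and the cause was not tested. SERBP1 kept its direction, with adjusted p of 0.0987 with the logit and 0.165 without the trend.

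The pairing by column number was added after the data were seen, since the MT columns carry no replicate number. Without a replicate label for the MT columns, the numbers were not taken as pairs in the main test. Deviations of same-numbered WT and MT columns correlated by 0.0989, 0.0964 and 0.0266 over all events. Over RP events the correlations were 0.343, 0.472 and 0.238. Over RP events and over all events alike, each column correlated highest with its own number, a hint from the data only.

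The share of RP events without overlap ranged from 9.83% to 16.8% leaving out 1 library (10.8% to 14.8% of all events), where fewer libraries overlap less easily. Both medians kept within the spread of the libraries. Among named events, small differences turned sign without 1 library. The most covered mutually exclusive exon event of RPS2 lay between -0.00267 and 0.00733, and the RPLP0 exon between -0.00717 and 0.00983. RPL10A lay between -0.00833 and 0.00867, RPL13A between -0.128 and 0.036, and the RPS24 exon between -0.189 and 0.0393. The RPS2 event with the lowest p kept its direction, between 0.031 and 0.051.

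The DRIP-seq difference in untreated RP genes was 16 at a fold enrichment of at least 4 and 22.5 with genes widened by 3 kb, and from 19 to 22 leaving out 1 library. The bona fide difference was 8.5, 16.5 and from 12.5 to 15.5. Levels have 3 decimals, so differences under 0.001 per library are not resolved, and the read depth of each library is unknown.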
